A study of Mus musculus with 12 samples.

Results

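The genes described here are 8 genes of cholesterol synthesis, its control and cholesterol efflux in the mouse retina: *Hmgcs1*, *Idi1*, *Fdft1*, *Sqle*, *Cyp51*, *Insig1*, *Srebf2* and *Abca1*. They were found by exact gene name among the 55487 genes of the deposited gene table, each name matched 1 row, and all 8 were among the 16471 genes tested. Of these, 5 encode enzymes of the pathway, 2 encode parts of its sterol control and 1, *Abca1*, encodes an exporter. None of the 8 encodes a receptor for lipoprotein uptake, so uptake was read from a longer list of pathway genes that holds receptors such as *Vldlr* and *Lrp8*.

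RNA-seq was performed on retinas of C57BL/6J mice (WT), of mice infected in the eye with AAV2.7m8 that carries an shRNA against *Pax6* under the U6 promoter together with GFP (shPax6), and of Jnk3-/- mice, which lack the kinase JNK3 in all cells (JNK3 KO). Into the vitreous of each kind of retina went 1 μL of either PBS or a 40 mM solution of NMDA (40 nmol), which gave 6 groups of 2 libraries and 12 libraries in all. NMDA overactivates glutamate receptors and is used to injure retinal ganglion cells (RGCs). Each library was made from poly(A) RNA of more than 3 pooled retinas, the labels give neither the age of the mice nor the time of collection, and nothing in them says that the libraries of a group came from separate experiments, so the tests measure the spread between these libraries. No library of retinas infected with the control vector shScramble is among the 12, so infection and knockdown cannot be told apart in any comparison of shPax6 with WT.

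Cells build cholesterol from acetyl-CoA through mevalonate, farnesyl diphosphate and squalene. When sterols in the endoplasmic reticulum run low, SCAP carries the membrane-bound transcription factor SREBP-2 to the Golgi, where it is cut and released to switch on the genes of synthesis and uptake, and when sterols are plentiful, INSIG proteins hold SCAP and SREBP-2 back. Surplus cholesterol raises oxysterols, which activate the receptors LXRα and LXRβ and with them *Abca1* and *Abcg1*, whose products pass cholesterol to apolipoproteins such as APOE. In neural tissue, where plasma lipoproteins are largely kept out, much of the cholesterol is made locally, and glia release it on APOE particles.

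The promoters of 4 of the genes are shown because these genes carry the contrasts described below: *Insig1* and *Hmgcs1* had the largest falls of the 8 genes in shPax6 PBS, *Srebf2* encodes the factor that drives synthesis, and *Abca1* moved against the others. Of the 8 genes, 6 had an entry in the RefSeq promoter table of GRCm38.p6, which runs from 250 bases before to 50 bases after the transcription start. Each sequence is given on the strand of its gene, and capitals mark 4 short motifs, each read on both strands. They are a form of the sterol regulatory element with the letters TCACNCCAC, the box known by its letters CCAAT, the E-box with the letters CACGTG and the GC box with the letters GGGCGG. Read on the other strand, the second of these shows as ATTGG and the GC box shows as CCGCCC. No base belonged to more than 1 match.

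*Hmgcs1*, chr13:119690101-119690400, plus strand: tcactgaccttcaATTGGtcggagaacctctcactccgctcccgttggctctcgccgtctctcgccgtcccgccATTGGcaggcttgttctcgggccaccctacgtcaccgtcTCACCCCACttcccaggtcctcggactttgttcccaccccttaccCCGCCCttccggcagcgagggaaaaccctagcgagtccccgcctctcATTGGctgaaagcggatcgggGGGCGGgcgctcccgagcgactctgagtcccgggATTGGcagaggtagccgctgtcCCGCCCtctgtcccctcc

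*Insig1*, chr5:28071162-28071461, plus strand: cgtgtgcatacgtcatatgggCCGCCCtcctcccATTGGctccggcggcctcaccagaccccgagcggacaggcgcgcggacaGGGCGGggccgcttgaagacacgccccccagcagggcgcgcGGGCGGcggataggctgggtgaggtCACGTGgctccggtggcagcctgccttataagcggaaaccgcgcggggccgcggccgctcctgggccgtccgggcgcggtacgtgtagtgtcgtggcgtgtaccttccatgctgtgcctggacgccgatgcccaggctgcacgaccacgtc

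*Srebf2*, chr15:82147019-82147318, plus strand: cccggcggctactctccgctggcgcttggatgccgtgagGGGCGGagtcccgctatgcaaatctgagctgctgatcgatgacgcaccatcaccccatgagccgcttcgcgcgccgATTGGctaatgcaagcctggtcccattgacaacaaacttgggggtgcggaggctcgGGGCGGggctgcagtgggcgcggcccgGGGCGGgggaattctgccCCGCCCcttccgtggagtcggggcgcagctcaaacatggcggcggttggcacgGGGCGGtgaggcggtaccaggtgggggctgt

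*Abca1*, chr4:53159846-53160145, minus strand: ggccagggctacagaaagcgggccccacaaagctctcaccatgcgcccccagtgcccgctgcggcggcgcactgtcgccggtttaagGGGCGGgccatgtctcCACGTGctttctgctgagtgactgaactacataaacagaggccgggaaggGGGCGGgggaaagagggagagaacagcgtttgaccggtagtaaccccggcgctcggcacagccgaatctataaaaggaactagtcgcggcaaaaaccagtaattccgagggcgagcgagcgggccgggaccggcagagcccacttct

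The form TCACNCCAC was found in 1 of the 6 promoters, that of *Hmgcs1*, where it began 137 bases before the start, and in 1.24% of all 32851 promoters of the same length. CCAAT was held by 5 of the 6, all but *Abca1*, against 37.4% of all promoters, and *Hmgcs1* had 4 copies of it. CACGTG was held by *Insig1* and *Abca1* and by 7.15% of all promoters. GGGCGG was held by all 6 and by 35.7% of all promoters. The direct repeat of AGGTCA with 4 bases between the copies, the textbook form of an LXR site, was in none of the 6 windows and in 0.0152% of all promoters. These matches describe letters in short windows only, and binding to them was not measured.

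Values were deposited as FPKM, fragments scaled to transcript length and library size, without read counts, so the depth behind a value is unknown and its error was taken from the replicates. The shPax6 PBS libraries held 94.56 and 92.84 FPKM of *Pax6* against 173.48 and 177.3 for WT PBS, and the JNK3 KO PBS libraries held 9.47 and 8.75 FPKM of *Mapk10*, which encodes JNK3, against 42.79 and 50.72. With NMDA neither target lay below its WT group: *Pax6* was at 67.52 and 58.73 FPKM in shPax6 against 55.42 and 53.81 in WT, and *Mapk10* at 6.65 and 13.77 in JNK3 KO against 8.98 and 6 in WT, so the FPKM of the targets check the labels of the PBS libraries but not those of the NMDA libraries. The 2 WT NMDA libraries stood apart: their FPKM summed to 805627 and 820180, against 541210 to 576922 in the other 10, and their difference from WT PBS depended on gene length. Sorted by spliced length, genes shorter than 1 kb had a median log2 difference of 1.03, genes of 1 to 2 kb one of 0.52, genes of 2 to 4 kb one of -0.32 and longer genes one of -1.17, whereas no median of the other responses and comparisons under PBS went beyond 0.2 in either direction. The spliced length of the 8 genes runs from 2542 bases for *Insig1* to 9712 for *Abca1*, so the tests, orders and correlations that rest on the WT NMDA libraries are given as deposited, with what a correction of every library for its trend on length changed in them. The FPKM of single libraries and all results on marker genes are as deposited only.

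Markers of rods, Müller glia and retinal neurons were expressed in every group, whereas 4 cornea markers summed to at most 2.7 FPKM, and several sums changed with the groups. The summed FPKM of 10 RGC markers, among them *Rbpms* and *Nefl*, was 598.5 to 617 in WT PBS, 329.9 to 347.1 in WT NMDA, 188.9 to 191.1 in shPax6 PBS, 71.11 to 76.69 in shPax6 NMDA, and in JNK3 KO 562.1 to 607.3 with PBS and 167 to 167.2 with NMDA. The sum in WT NMDA rested largely on *Thy1*, at 135.95 and 153.62 FPKM, and *Sncg*, at 112.21 and 115.5. *Nefl* was at 27.66 and 25.52 there, against 162.46 and 160.25 in WT PBS. With NMDA the median log2 difference of the 10 genes was -1.86 in WT, -2.45 in shPax6 and -1.78 in JNK3 KO. The sums therefore do not rank the retinas by their response. The summed FPKM of 12 microglia and macrophage markers, such as *Aif1* and *C1qa*, was 201.4 to 218.3, 430.3 to 444.9, 184 to 197.8, 822.8 to 823.2, 183.7 to 197.8 and 136.4 to 144.6 in the same order of groups. The genes of this sum did not all move alike. Against WT PBS, 7 were higher and 4 lower in WT NMDA, and 3 were higher and 5 lower in shPax6 PBS. In whole retina, fewer cells of a type and less RNA per cell cannot be told apart, and the part that these shifts play in the results on cholesterol genes was not tested.

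Across the 6 groups, the 5 enzymes, *Insig1* and *Srebf2* were high in WT PBS and JNK3 KO PBS and, apart from *Hmgcs1*, at their lowest in shPax6 NMDA, whereas *Abca1* was at its highest there. With values corrected for length, *Hmgcs1* too had its lowest mean in shPax6 NMDA, at -1.28 from WT PBS on the log2 scale, where it overlapped WT NMDA at -1.27, *Cyp51* had its highest mean in WT NMDA, *Srebf2* in WT NMDA lay above JNK3 KO NMDA and overlapped JNK3 KO PBS, and for *Idi1* and *Cyp51* WT NMDA and shPax6 PBS did not overlap. Values per library are given first, as FPKM, for the groups in the order WT PBS, WT NMDA, shPax6 PBS, shPax6 NMDA, JNK3 KO PBS and JNK3 KO NMDA.

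**Figure D1:**
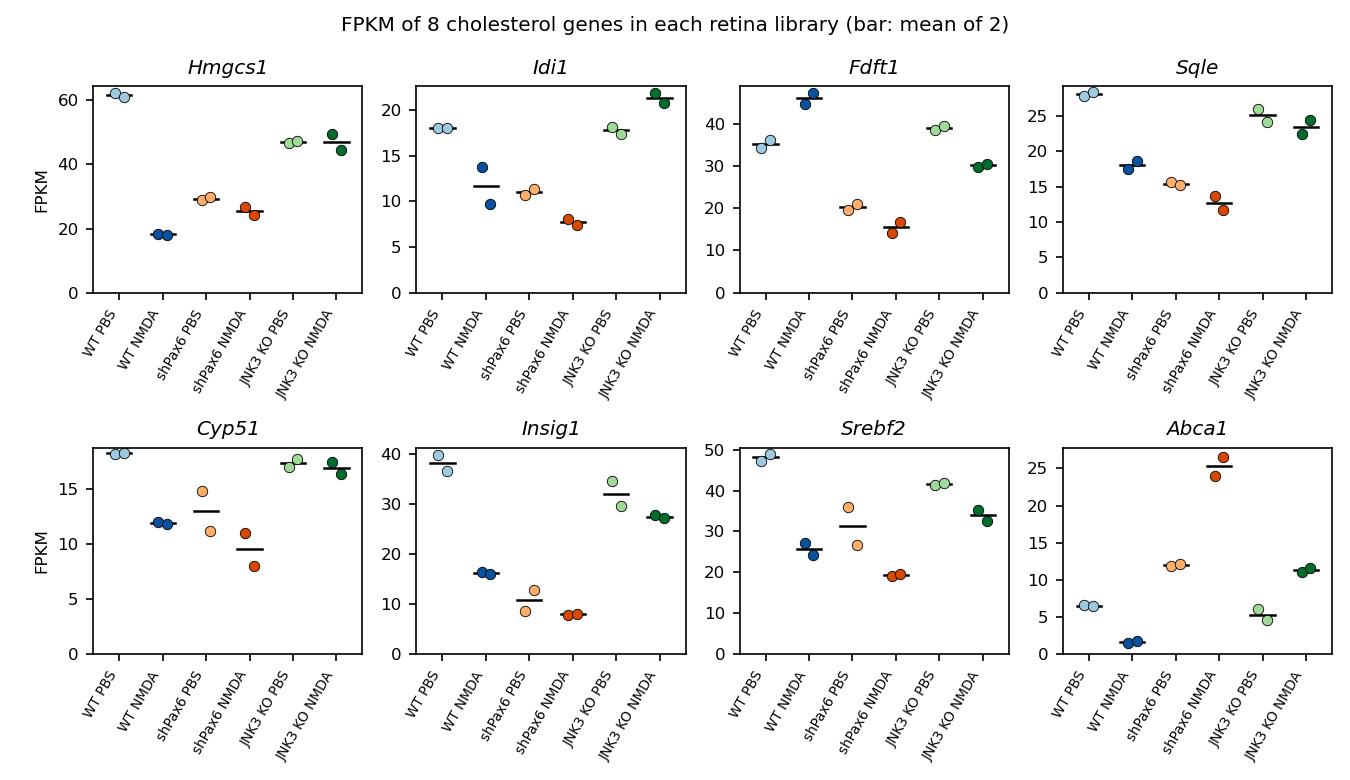
FPKM (vertical axes, each from 0) of the 8 genes in the 12 libraries, by group on the horizontal axes; points are libraries and bars are means of 2. *Abca1* peaks in shPax6 NMDA at 23.97 and 26.57 FPKM, where *Idi1*, *Fdft1*, *Sqle*, *Cyp51*, *Insig1* and *Srebf2* have their lowest means, and *Hmgcs1* is lowest in WT NMDA as deposited, at 18.33 and 17.98.

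*Hmgcs1* (chr13:119690379-119708260 of GRCm38, plus strand) encodes the synthase that makes HMG-CoA early in the mevalonate route. It was listed at 62.24 and 60.92, 18.33 and 17.98, 28.76 and 29.72, 26.6 and 24.2, 46.69 and 47.24, and 49.57 and 44.37 FPKM. No other enzyme of the 5 reached so high a mean, 61.58 ± 0.93 FPKM (SD, n = 2) in WT PBS, and it fell to 29.5% of that in WT NMDA. Only its means in JNK3 KO PBS and JNK3 KO NMDA, both 46.97, were neighbours in order whose libraries overlapped.

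*Idi1* (chr13:8885501-8892451, plus strand) encodes the isomerase that balances the isoprene units from which longer chains are built. Its values were 17.99 and 18.06, 13.75 and 9.65, 10.7 and 11.33, 8.06 and 7.39, 18.15 and 17.35, and 21.88 and 20.7 FPKM. It was highest in JNK3 KO NMDA, WT PBS overlapped JNK3 KO PBS, and WT NMDA, whose libraries lay well apart, overlapped shPax6 PBS.

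*Fdft1* (chr14:63145150-63179578, minus strand) encodes squalene synthase, the entry into the sterol branch. It was listed at 34.32 and 36.08, 44.79 and 47.31, 19.52 and 21.04, 14.1 and 16.84, 38.48 and 39.6, and 29.84 and 30.49 FPKM. It was the only gene of the 8 with its highest mean in WT NMDA as deposited, 46.05 ± 1.78 FPKM (SD, n = 2), and no 2 of its groups overlapped.

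*Sqle* (chr15:59315077-59331192, plus strand) encodes squalene epoxidase, which adds the oxygen that later becomes the hydroxyl group of cholesterol. Its values were 27.79 and 28.38, 17.44 and 18.55, 15.62 and 15.22, 13.72 and 11.71, 26.03 and 24.07, and 22.49 and 24.42 FPKM. WT PBS was the highest group and shPax6 NMDA the lowest, and the JNK3 KO groups overlapped each other.

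*Cyp51* (chr5:4081145-4104746, minus strand) encodes the demethylase of lanosterol. It was listed at 18.21 and 18.28, 12 and 11.81, 14.81 and 11.17, 11.04 and 8, 16.98 and 17.77, and 17.48 and 16.4 FPKM. The shPax6 libraries of a group differed most from each other, shPax6 PBS overlapped WT NMDA, and JNK3 KO PBS overlapped JNK3 KO NMDA.

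*Insig1* (chr5:28071363-28078662, plus strand) encodes one of the INSIG proteins that retain SCAP and is itself switched on by SREBP-2. Its values were 39.62 and 36.59, 16.35 and 16, 8.58 and 12.87, 7.75 and 8.07, 34.46 and 29.46, and 27.65 and 27.13 FPKM. Its mean fell to 28.2% of WT PBS in shPax6 PBS and 20.8% in shPax6 NMDA, the lowest shares among the 8 genes in these groups, and no 2 neighbouring groups overlapped.

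*Srebf2* (chr15:82147181-82205379, plus strand) encodes SREBP-2. It was listed at 47.15 and 49.05, 27.07 and 24.36, 36.08 and 26.6, 19.2 and 19.5, 41.38 and 41.92, and 35.29 and 32.64 FPKM. The shPax6 PBS libraries lay far apart and overlapped both JNK3 KO NMDA and WT NMDA.

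*Abca1* (chr4:53030787-53159895, minus strand) encodes the transporter that hands cholesterol and phospholipid to lipid-poor apolipoproteins. Its values were 6.58 and 6.47, 1.45 and 1.82, 11.87 and 12.16, 23.97 and 26.57, 6.06 and 4.59, and 11.11 and 11.63 FPKM. The order of its groups was its own: shPax6 NMDA, shPax6 PBS, JNK3 KO NMDA, WT PBS, JNK3 KO PBS and WT NMDA, with no overlap between neighbours. Corrected for length, WT PBS and JNK3 KO PBS overlapped and changed places, and the other places stood as before.

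The comparison of shPax6 PBS with WT PBS asked what infection with the *Pax6* shRNA vector did without NMDA. Of the 8 genes, 6 were lower and 1, *Abca1*, was higher at an adjusted p under 0.05, against 11.2% of all genes tested that were lower and 5.36% that were higher. The median log2 difference was -0.75 for the 8 genes and -0.06 for all genes. Differences are given on the scale log2(FPKM + 0.1) with the standard error of the limma fit and Benjamini-Hochberg adjusted p over all genes tested.

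Among the enzymes, *Hmgcs1* fell by 1.07 ± 0.08 (SE, adjusted p = 4.43e-05), *Sqle* by 0.86 ± 0.1 (adjusted p = 0.000535), *Fdft1* by 0.79 ± 0.09 (adjusted p = 0.000608) and *Idi1* by 0.71 ± 0.15 (adjusted p = 0.0128). *Cyp51* was also lower in both shPax6 PBS libraries than in both WT PBS libraries, with a difference of -0.5 ± 0.17 and an adjusted p of 0.0754. Of the control genes, *Insig1* fell by 1.85 ± 0.17 (adjusted p = 0.000136), to 0.278 of its WT PBS level on this scale, and *Srebf2* by 0.63 ± 0.13 (adjusted p = 0.01). The exporter *Abca1* rose by 0.87 ± 0.16 (adjusted p = 0.00695), a 1.83-fold difference. Synthesis genes and the exporter thus moved in opposite directions. In all 8 genes the shPax6 PBS and WT PBS libraries did not overlap. The same held for 7 of the 8 between JNK3 KO PBS and WT PBS, where 1 passed. The share of all genes without overlap was not counted.

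**Figure D2:**
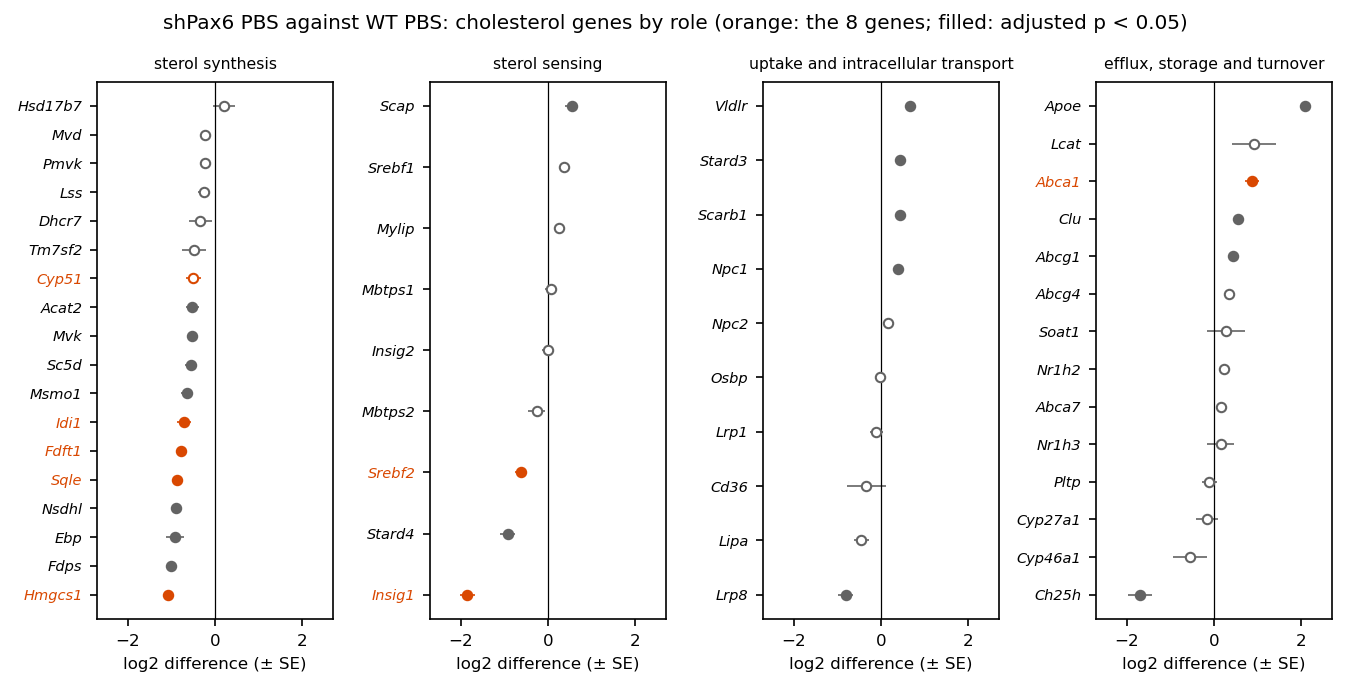
Log2 difference between shPax6 PBS and WT PBS (horizontal axes, bars are SE) for genes of 4 pathway lists, sorted within each list; orange marks genes of the 8 and filled points an adjusted p under 0.05. In the synthesis list 11 of the 18 genes are filled and all of these lie left of 0, while *Apoe* at 2.09 and *Abca1* at 0.87 lie right of 0 and *Insig1* at -1.85 far left.

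The other genes of the pathway lists were counted in the same fit. Of the 13 other sterol synthesis genes, 7 were lower and 0 higher, with a median of -0.52, and at an unadjusted p under 0.05 the counts were 8 and 0. *Fdps*, the farnesyl diphosphate synthase just before *Fdft1*, fell by 1, *Ebp*, a sterol isomerase, by 0.92, *Nsdhl*, a sterol dehydrogenase, by 0.89 and *Msmo1*, a sterol oxidase, by 0.65. Of the 7 other sensing genes, *Stard4*, a sterol carrier, fell by 0.92, whereas *Scap* rose by 0.54.

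Among the 10 genes of uptake and intracellular transport, 4 were higher and 1 lower. *Lrp8*, an APOE receptor, fell by 0.81. *Vldlr* rose by 0.66, *Scarb1* by 0.43, *Stard3* by 0.43 and *Npc1* by 0.38. Of the 13 other genes of efflux, storage and turnover, *Apoe* rose most, from 219.48 and 226.46 to 979.88 and 916.06 FPKM, a difference of 2.09 ± 0.06 (adjusted p = 5.5e-07), followed by *Clu* at 0.55 and *Abcg1* at 0.44. *Ch25h*, which makes an oxysterol, fell by 1.69 at levels of 0.65 and 0.38 FPKM in shPax6 PBS. In a list of 11 fatty acid synthesis genes, targets of SREBP-1, 6 were lower and 1 higher, with *Scd1* at -1.24, *Fads1* at -0.78, *Scd2* at -0.69 and *Elovl6* at -0.68 and *Me1* at 0.42.

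The counts of the 8 genes in this comparison were the same after the length correction, 6 lower and 1 higher, when 8.83% of all genes were lower and 7.71% higher. With the spread taken from the 4 libraries alone 5 of the 8 genes passed, and *Insig1* and *Srebf2* lost their calls. Over all genes the number called went from 2724 to 887 in that setting. Without WT PBS replicate 2 only 4 of the 8 genes passed, with the adjusted p of *Idi1* at 0.0794, of *Srebf2* at 0.0761 and of *Abca1* at 0.0537. Without WT PBS replicate 1 *Idi1* and *Srebf2* did not pass, and without shPax6 PBS replicate 1 *Idi1* did not and *Cyp51* did, at -0.7. *Cyp51* also passed without either shPax6 NMDA library. Of the marker lists, 7 of 10 RGC genes were lower (median -1.66) and 10 of 10 rod genes higher (median 0.52), and 7 of 8 neutrophil genes were lower (median -3.38), with *S100a8* at 1.44 and 1.14 FPKM against 92.61 and 107.55 and *Ly6g* at 0 in both shPax6 PBS libraries. Of 10 Müller glia genes, 3 were higher and 3 lower, and of 12 microglia and macrophage genes, 3 were higher and 5 lower. Lower were also 5 of 10 amacrine, 4 of 10 bipolar, 3 of 6 lens and 2 of 8 vascular endothelium genes, and 1 bipolar gene was higher. Of the 4 RPE, 3 oligodendrocyte and 1 cornea genes tested none passed by limma. The part of these shifts in the lower synthesis genes was not tested.

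The comparison of NMDA with PBS in WT retina asked for the response to the excitotoxic injury. As deposited, 7 of the 8 genes were lower and 1, *Fdft1*, was higher, against 33.8% of all genes lower and 26% higher. *Abca1* fell by 1.94 ± 0.16 (adjusted p = 7.75e-06), *Hmgcs1* by 1.76 ± 0.08 (adjusted p = 1.66e-07) and *Insig1* by 1.23 ± 0.17 (adjusted p = 0.000168). *Srebf2* fell by 0.9, *Sqle* and *Idi1* each by 0.64 and *Cyp51* by 0.61, the last with an adjusted p of 0.0108 that rose above 0.05 without either WT PBS library or WT NMDA replicate 2, and *Fdft1* rose by 0.39 ± 0.09 (adjusted p = 0.0056). The median of the 8 genes was -0.77, against -0.09 for all genes and -0.32 for all genes from 2 to 4 kb.

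After the length correction, 4 of these 8 results passed: 3 genes were lower and 1 higher, when 22.1% of all genes were lower and 23.8% higher. *Hmgcs1* fell by 1.27 ± 0.07 (adjusted p = 2.73e-06), *Insig1* by 1.03 ± 0.17 (adjusted p = 0.000962) and *Sqle* by 0.32 ± 0.1 (adjusted p = 0.0287), and *Fdft1* rose by 0.78 ± 0.09 (adjusted p = 0.000178). *Abca1*, the longest of the 8 genes, moved to -0.28 ± 0.17 with an adjusted p of 0.207, and *Idi1* to -0.28, *Srebf2* to -0.11 and *Cyp51* to 0.08, none of which passed. With FPKM rescaled to TPM the median of all genes moved from -0.09 to -0.66 and *Fdft1* lay at -0.19, above that median but below 0. The direction of *Fdft1* therefore differed with the scaling, and the fall of *Abca1* in WT NMDA rested on how length was treated.

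**Figure D3:**
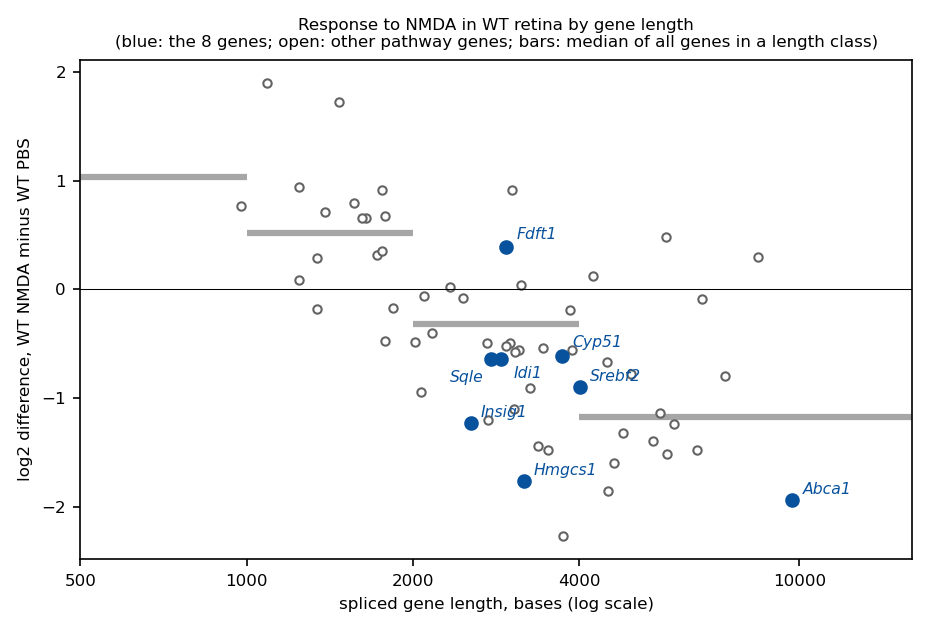
Log2 difference between WT NMDA and WT PBS (vertical axis) against spliced gene length in bases (horizontal axis, log scale); blue points are the 8 genes, open points the other genes of the 5 pathway lists and grey bars the median of all genes in a length class. The bars step from 1.03 under 1 kb to -1.17 over 4 kb, *Hmgcs1* and *Insig1* lie well below the bar of their class and *Fdft1* above it.

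The remaining synthesis genes split in WT NMDA along the same lines, 5 higher and 4 lower of 13. The 4 that rose most were *Pmvk* by 1.9, *Ebp* by 1.72, *Fdps* by 0.94 and *Mvd* by 0.91, all with spliced lengths under 2 kb, and those that fell were *Lss* by 1.6, *Hsd17b7* by 1.48, *Sc5d* by 1.1 and *Nsdhl* by 0.4, all longer than 2 kb. With the length correction 4 were higher and 4 lower: *Pmvk*, a kinase of the mevalonate route, lay at 1.02, *Ebp* at 1.18 and *Mvd* at 0.61, and *Hsd17b7* lay at -0.86, *Sc5d* at -0.66, *Lss* at -0.62 and *Nsdhl* at -0.43. Of the 7 other sensing genes 5 were lower and 0 higher as deposited, and 2 were lower and 2 higher after the correction. *Mbtps2*, the intramembrane protease that frees SREBP-2, fell by 2.27 as deposited and by 1.57 after the correction, and *Insig2*, the relative of *Insig1*, by 0.94 and 1.03, whereas *Scap* at 0.55 and *Srebf1*, which encodes SREBP-1, at 0.51 were the genes that rose after it. Of the 13 other efflux, storage and turnover genes 3 were higher and 4 lower as deposited, and 3 higher and 2 lower after the correction. *Apoe* rose by 0.77 as deposited (adjusted p = 6.39e-06) but lay at -0.2 after the correction (adjusted p = 0.00858). Of the 10 uptake and transport genes 2 were higher and 4 lower as deposited, and 4 higher and 0 lower after it. Of the 11 fatty acid synthesis genes 1 was higher and 10 lower as deposited, and 2 higher and 4 lower after it.

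Among the markers in WT NMDA, as deposited, 9 of 10 RGC and 8 of 10 amacrine genes were lower, 5 of 8 neutrophil genes were higher and 0 lower, and 7 of 12 microglia and macrophage genes were higher and 4 lower. The neutrophil sum went from 1002 to 1057 FPKM with PBS to 2885 to 2904 with NMDA, with *S100a9* from 92.86 and 99.58 to 1145.58 and 1114.59. The Müller glia sum went from 1125 to 1154 to 1827 to 1843 FPKM, although 5 of its 10 genes were lower and 3 higher, and the bipolar sum from 845.1 to 850.9 to 1739 to 1769, with 7 of 10 lower and 2 higher. These marker results were not corrected for the trend of the WT NMDA libraries on gene length. The part of these shifts in the results on the 8 genes was not tested.

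In shPax6 retina, NMDA lowered *Srebf2*, *Idi1* and *Fdft1* and raised *Abca1*. Of the 8 genes, 3 were lower and 1 higher, against 11% of all genes lower and 19.1% higher. *Abca1* rose by 1.06 ± 0.16 (adjusted p = 0.00122) to 387% of its WT PBS mean, the highest share of any of the 8 genes in any group. This response is measured from the same shPax6 PBS libraries as the comparison with WT PBS. *Srebf2* fell by 0.68 ± 0.13 (adjusted p = 0.0039), *Idi1* by 0.51 ± 0.15 (adjusted p = 0.0319) and *Fdft1* by 0.39 ± 0.09 (adjusted p = 0.0118). *Cyp51* at -0.45, *Insig1* at -0.41, *Sqle* at -0.28 and *Hmgcs1* at -0.2 did not pass. In each the NMDA libraries lay below the PBS libraries, but the share of all genes that separate so was not counted.

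In this comparison the scaling changed the count upward: with the length correction, with the 75th percentile made equal and with quantile normalization all 8 genes passed, 7 lower and *Abca1* higher. With TPM 6 of the 8 genes passed. Over all genes the calls shifted too. Lower calls went from 1816 to 2507 with the 75th percentile made equal and 2742 with quantile normalization, and higher calls from 3151 to 2371 and 2158. With the correction *Hmgcs1* fell by 0.3, *Sqle* by 0.4, *Cyp51* by 0.5 and *Insig1* by 0.54, when 15.2% of all genes were lower and 13.7% higher. The call for *Idi1* was lost on leaving out any library outside WT NMDA, and that for *Fdft1* without shPax6 PBS replicate 2. *Hmgcs1*, *Sqle* and *Cyp51* passed without shPax6 NMDA replicate 1, *Cyp51* also without shPax6 PBS replicate 2, and *Insig1* without shPax6 PBS replicate 1, at -0.7. With the spread taken from the 4 libraries alone only *Abca1* passed.

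*Apoe* and other genes of efflux and turnover also rose with NMDA in shPax6 retina. Of the 13 in that list 6 were higher and 0 lower, among them *Ch25h* by 2.59, *Cyp27a1* by 1.46, *Pltp* by 1.14 and *Apoe* by 1.08, the last from 979.88 and 916.06 to 1929.76 and 2083.6 FPKM. Of the 10 uptake and transport genes 5 were higher and 1, *Vldlr*, was lower, by 0.25. *Cd36*, a scavenger receptor, rose by 2.6, the lysosomal lipase *Lipa* by 1.44, *Npc2* by 1.2 and *Scarb1* by 0.41. Of the synthesis genes *Hsd17b7* fell by 1.12 and *Acat2* by 0.63, whereas *Ebp* rose by 1.02 and *Pmvk* by 0.67. Of the 11 fatty acid synthesis genes 0 were higher and 2 lower. Beside these, 9 of 12 microglia and macrophage genes were higher (median 1.85) and 7 of 10 RGC and 10 of 10 amacrine genes lower. Neutrophil genes were higher in 6 of 8 and vascular endothelium genes in 5 of 8. Of 10 rod genes 9 were lower and 1 higher, and all 4 RPE genes tested were lower (median -3.37). Of 10 Müller glia genes 5 were higher and 2 lower, and of 10 bipolar genes 3 were higher and 3 lower. The part of these shifts in the rise of *Abca1* and *Apoe* was not tested.

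In JNK3 KO retina 2 of the 8 genes changed with NMDA. *Abca1* rose by 1.09 ± 0.16 (adjusted p = 0.00387), a 2.13-fold difference, and *Fdft1* fell by 0.37 ± 0.09 (adjusted p = 0.0368), against 4.33% of all genes higher and 6.1% lower. The other 6 lay between -0.29 for *Srebf2* and 0.26 for *Idi1*, and *Hmgcs1* differed by 0 ± 0.08. The rise of *Abca1* held with the length correction at 0.78 ± 0.17 (adjusted p = 0.023), with a background of 3.43% higher and 5.18% lower, and its adjusted p was 0.0554 with the spread from the 4 libraries alone. The call for *Fdft1* was lost without either library of WT PBS, JNK3 KO PBS or JNK3 KO NMDA, and *Srebf2* passed without either shPax6 PBS library.

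None of the 13 other synthesis genes, 7 sensing genes or 10 uptake and transport genes passed in JNK3 KO with NMDA by limma, and of the 13 efflux genes only *Clu* did, with a fall of 0.84. With the length correction *Apoe* passed as well, at 0.31 (adjusted p = 0.00572), against 0.18 as deposited. Of the 11 fatty acid synthesis genes 1 was higher and 1 lower as deposited. At an unadjusted p under 0.05, 1 synthesis gene was higher and 1 lower, 1 sensing gene was lower and 3 uptake and transport genes were higher. In the same libraries 6 of 10 RGC genes were lower (median -1.78), and 1 of 12 microglia and macrophage genes was higher and 5 lower (median -0.42). Neutrophil genes were lower in 6 of 8, with *S100a9* at 4.34 and 6.61 FPKM against 70.71 and 76.1. The part of these shifts in the rise of *Abca1* was not tested.

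Under PBS, JNK3 KO and WT retina differed in 1 of the 8 genes. *Hmgcs1* fell by 0.39 ± 0.08 (adjusted p = 0.0483), against 0.407% of all genes lower and 1.1% higher, and the other 7 genes lay between -0.3 for *Abca1* and 0.15 for *Fdft1* without passing. The call for *Hmgcs1* was lost on leaving out any library outside shPax6 NMDA, where its difference stayed between -0.41 and -0.37. Of the other genes of the 4 cholesterol lists 0 passed by limma, and at an unadjusted p under 0.05, 2 efflux genes and 1 uptake and transport gene were higher.

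**Figure D4:**
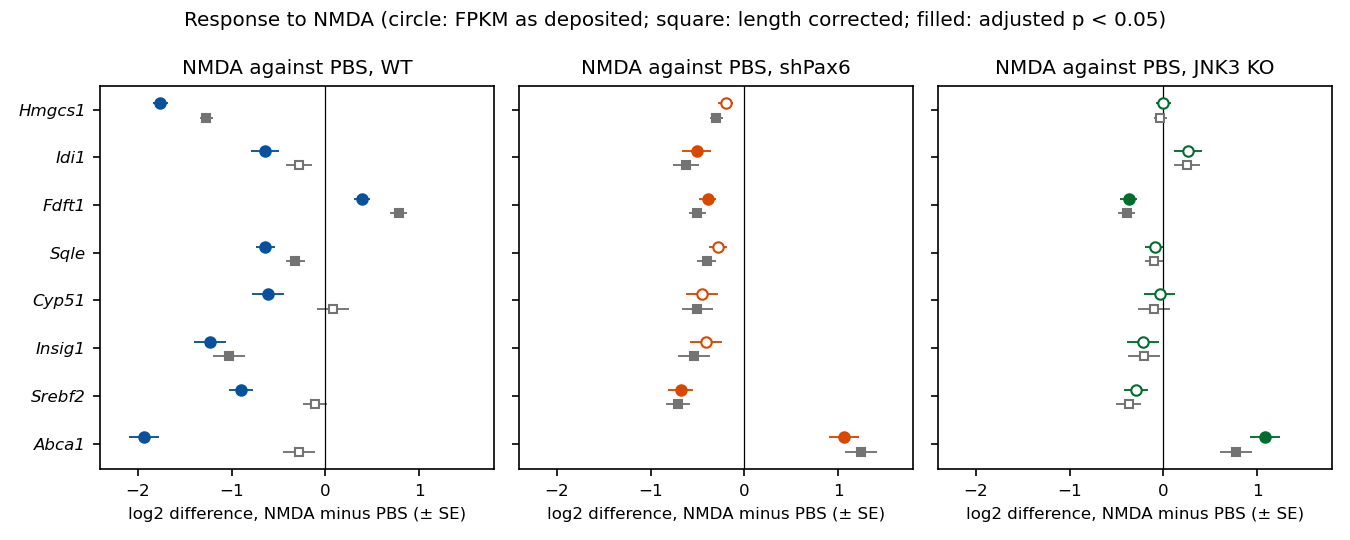
Log2 difference between NMDA and PBS libraries (horizontal axes, bars are SE) for the 8 genes in WT, shPax6 and JNK3 KO retina; circles are FPKM as deposited, squares are corrected for gene length and filled symbols have an adjusted p under 0.05. *Abca1* lies at -1.94 in WT, 1.06 in shPax6 and 1.09 in JNK3 KO as deposited, and at -0.28, 1.24 and 0.78 after the correction.

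Whether the responses differed between the retinas was tested as the difference of the differences. Between WT and JNK3 KO, 6 of the 8 genes responded lower and 1 higher in WT, against 27.9% of all genes lower and 23.5% higher. The difference of responses was -3.03 ± 0.23 for *Abca1*, -1.75 ± 0.11 for *Hmgcs1*, -1.01 ± 0.23 for *Insig1*, -0.9 ± 0.21 for *Idi1*, -0.61 ± 0.18 for *Srebf2* and -0.55 ± 0.14 for *Sqle*, and 0.76 ± 0.13 for *Fdft1*. *Cyp51*, at -0.58 ± 0.24, did not pass. After the length correction 4 passed, *Abca1* at -1.06, *Hmgcs1* at -1.24, *Insig1* at -0.83 and *Fdft1* at 1.17, when 15.8% of all genes were lower and 18.4% higher. The call for *Srebf2* as deposited was lost without WT PBS replicate 2, WT NMDA replicate 2, JNK3 KO NMDA replicate 1 or either JNK3 KO PBS library, and *Cyp51* passed without any 1 of the 4 shPax6 libraries.

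Between WT and shPax6, 3 genes responded lower and 1 higher in WT, against 31.4% of all genes lower and 18.3% higher. The difference of responses was -3.01 ± 0.23 for *Abca1* (adjusted p = 1.42e-05), -1.55 ± 0.11 for *Hmgcs1* (adjusted p = 8.61e-06), -0.82 ± 0.23 for *Insig1* (adjusted p = 0.0169) and 0.78 ± 0.13 for *Fdft1* (adjusted p = 0.00114). After the length correction *Abca1* at -1.52, *Hmgcs1* at -0.97 and *Fdft1* at 1.28 passed, as did *Srebf2* at 0.6, which had lain at -0.23, and *Insig1* did not, at -0.5. With that correction 16.8% of all genes were lower and 19.4% higher. The call for *Insig1* as deposited was also lost without WT PBS replicate 1, WT NMDA replicate 2 or shPax6 NMDA replicate 2. *Abca1*, *Hmgcs1* and *Fdft1* were therefore the genes whose responses in WT differed from those in both other retinas under either treatment of length, and the 2 comparisons share the WT libraries. With TPM the differences of *Fdft1* were 0.26 against shPax6 and 0.17 against JNK3 KO and did not pass. Without shPax6 PBS replicate 1 *Srebf2* passed against shPax6 at -0.45, and without shPax6 NMDA replicate 2 *Sqle* passed at -0.47.

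To see how the exporter stood against the enzymes, the z-scores of the 5 enzymes were averaged in each library. This synthesis score was 0.92 and 0.95 in WT PBS, in JNK3 KO 0.75 and 0.73 with PBS and 0.67 and 0.61 with NMDA, -0.27 and -0.41 in WT NMDA, -0.54 and -0.68 in shPax6 PBS and -1.19 and -1.54 in shPax6 NMDA. Within each of WT, shPax6 and JNK3 KO the NMDA libraries scored below the PBS libraries, but not through the same enzymes. In JNK3 KO only *Fdft1* of the 5 passed, with a fall of 0.37, and *Idi1* lay at 0.26. In WT *Fdft1* rose by 0.39 as deposited while the other enzymes fell. As deposited, *Abca1* was high where the score was low in the shPax6 groups, but it was lowest in WT NMDA, where the score was also below 0. With values corrected for length, the WT NMDA libraries scored 0.34 and 0.27, above 0, and the *Abca1* difference between WT NMDA and WT PBS was the -0.28 that did not pass, while the shPax6 NMDA libraries scored -1.39 and -1.76.

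**Figure D5:**
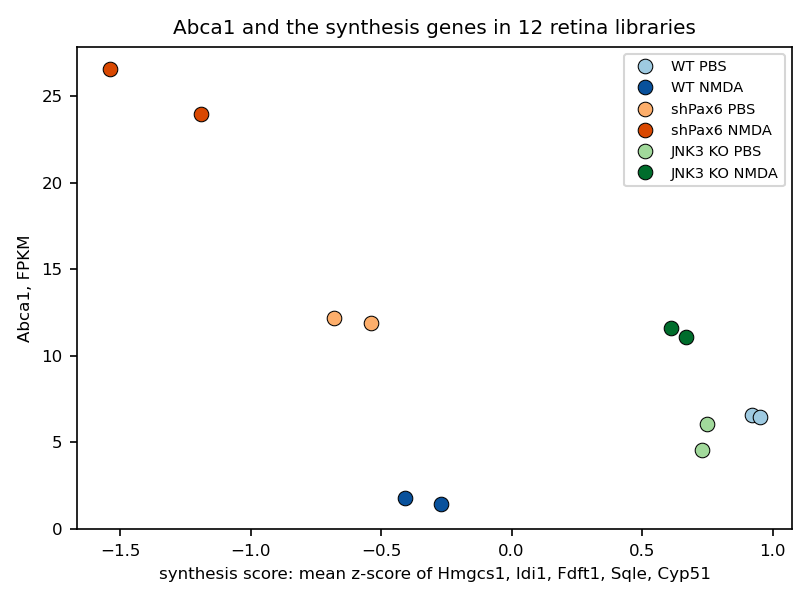
*Abca1* in FPKM (vertical axis, from 0) against the synthesis score, the mean z-score of 5 enzymes (horizontal axis), in 12 libraries coloured by group, both from FPKM as deposited. The shPax6 NMDA libraries lie at upper left with scores of -1.19 and -1.54, the WT PBS libraries at lower right with 0.92 and 0.95, and the WT NMDA libraries lie lowest, at 1.45 and 1.82 FPKM.

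Over the 12 libraries, which are 6 groups of 2 and so not 12 independent conditions, the Pearson correlation of the synthesis score on the log2 scale was 0.97 with *Insig1* and 0.91 with *Srebf2*, which are not in the score, and -0.37 with *Abca1*. On values corrected for length these were 0.94, 0.9 and -0.88, so the value for *Abca1* depended on how the WT NMDA libraries were treated. Among the other pathway genes it was 0.92 with *Elovl6*, 0.9 with *Nsdhl* and 0.86 with *Acat2*. After the correction it was 0.93, 0.9 and 0.95. *Fdft1* had a correlation of 0.17 with *Hmgcs1*, 0.53 with *Cyp51*, 0.6 with *Idi1* and 0.71 with *Sqle*, and of -0.89 with *Abca1*. Corrected for length, these were 0.22, 0.83, 0.66, 0.77 and -0.92. Of 11095 protein-coding genes outside the lists, the 5 most like the score were *Gria1* (0.977), an AMPA receptor subunit, *Fgf1* (0.974), a growth factor, *Kif5a* (0.974), a neuronal kinesin, *Gabrr1* (0.964), a GABA receptor subunit, and *Ttc9* (0.963). *Kif5a*, for example, measured 66.1 and 65.55 FPKM under WT PBS, 28.16 and 27.51 in shPax6 PBS and 10.77 and 10.74 in shPax6 NMDA. The 3 most like *Abca1* were *Amer2* (0.986), *Cerkl* (0.984) and *Casz1* (0.983). Corrected for length, the correlations with the score were 0.898 for *Gria1*, 0.981 for *Fgf1*, 0.965 for *Kif5a*, 0.932 for *Gabrr1* and 0.962 for *Ttc9*, and those with *Abca1* were 0.43 for *Amer2*, 0.797 for *Cerkl* and 0.789 for *Casz1*, so the genes most like *Abca1* as deposited were not those most like it after the correction.

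At the level of transcripts, 1 isoform carried most of each gene, from 66.2% of the mean FPKM for Srebf2-201 to 98.8% for Sqle-201. Abca1-201, which carried 94.2%, lay at 5.53 and 5.02 FPKM in WT PBS, 11.87 and 12.16 in shPax6 PBS and 23.97 and 23.34 in shPax6 NMDA, so the rise of the gene was that of its long transcript. Cyp51-201 measured 18.21 and 18.28 FPKM under WT PBS but 8.95 and 11.17 under shPax6 PBS. A short *Cyp51* transcript of 528 bases was listed at 4.64 FPKM in shPax6 PBS replicate 1 and 4.57 in shPax6 NMDA replicate 1 and at 0 in the other 10 libraries, and these are the libraries in which the gene value of *Cyp51* was the higher of its group. The *Hmgcs1* transcript of 3464 bases went from 13.78 and 9.97 FPKM under WT PBS to 0.54 and 1.15 under WT NMDA, beside 46.98 and 49.22 to 17.79 and 16.74 for Hmgcs1-201. Transcript values were estimated by the authors from shared reads and were not tested here.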

How the data were processed

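Poly(A) RNA libraries of mouse retina, 12 in 6 groups of 2, were sequenced by the authors as paired ends. Per the submitters' processing notes, the tools were STAR 2.7.1a, RSEM 1.3.3, edgeR 3.36.0 and R 4.1.0 with the build GRCm38.p6. The deposited tables hold FPKM, 1 for genes and 1 for transcripts, and no read counts, so the depth per library is not given here and count tests could not be run. Groups were taken from the sample titles. The 8 genes, the pathway lists and the marker lists were chosen with earlier results of these data known, and some genes of the pathway lists are not reported here and were left out of the counts.

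The 16471 of 55487 genes whose mean passed 1 FPKM in some group were transformed to log2(FPKM + 0.1) and fitted in limma 3.58.1 (R 4.3.3) with 6 group means, 6 residual degrees of freedom and eBayes with an intensity trend. A call needed a p under 0.05 after Benjamini-Hochberg adjustment over all genes tested. A fold change on this scale understates the change of low genes. Beside the 8 genes, the text names up to 4 higher and 4 lower called genes of a pathway list and comparison, by size, the 5 genes most like the synthesis score and the 3 most like *Abca1*. The pathway genes correlated with the score and single marker genes were named after their values were seen. The 12 marker lists stood for Müller glia, RGC, amacrine, rod, bipolar, microglia and macrophage, neutrophil, vascular endothelium, RPE, lens, cornea and oligodendrocyte.

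For the length correction, each library's deviation from the mean of 12 was smoothed on log10 spliced length (lowess span 0.3, GENCODE M21) and subtracted. It covered 16452 of the tested genes. The fit was tested on simulated data with known changes. Replicate numbers did not pair the libraries. Plots used matplotlib 3.10.9 in Python 3.11.15.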

Additional observations from a re-analysis of the deposited data

Results flagged for a closer look

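The response to NMDA differed between WT and JNK3 KO retina, by the test of the difference itself, for 7 of the 8 genes, when 27.9% of all genes responded lower and 23.5% higher in WT. The difference of responses (WT minus JNK3 KO, log2) was -3.03 for *Abca1*, -1.75 for *Hmgcs1*, -1.01 for *Insig1*, -0.9 for *Idi1*, -0.61 for *Srebf2*, -0.55 for *Sqle* and 0.76 for *Fdft1*. Between WT and shPax6 the same test passed for 4 genes, a share like that of all genes, of which 31.4% responded lower and 18.3% higher in WT. They were at -3.01 for *Abca1*, -1.55 for *Hmgcs1*, -0.82 for *Insig1* and 0.78 for *Fdft1*. The trend of the WT NMDA libraries on gene length moves with these differences. After the length correction those against JNK3 KO passed for *Abca1*, *Hmgcs1*, *Insig1* and *Fdft1* and not for *Idi1*, *Srebf2* and *Sqle*, and those against shPax6 passed for *Abca1*, *Hmgcs1* and *Fdft1* and not for *Insig1*. With that correction 15.8% of all genes were lower and 18.4% higher against JNK3 KO, and 16.8% lower and 19.4% higher against shPax6. With 2 libraries in a group no test for a library far from its group was possible.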

How the results depend on the processing

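Each of the 56 log2 differences was recomputed with pseudocounts of 1 and 0.5, without a filter, with a filter on the mean of 12 libraries, with TPM, 75th-percentile and quantile scaling, with the length correction, with the spread of the groups compared alone, without the intensity trend, with a replicate block and without each library in turn, when the lone library left in a group is assumed to vary like the others. Of the recomputed values 1159 kept direction and side of the threshold, 70 lost the call, 37 gained it and 22 changed sign. The cause of the changes was not tested, except that the study's rule asks for an unadjusted p under 0.05 and an absolute log2 difference above 1. The paper states this rule for transcripts in WT and shPax6 retina. Here it was applied to genes, with the limma p and without its condition on the variance-mean ratio. For transcripts across WT, shPax6 and JNK3 KO the paper states FPKM above 1 in at least 1 group and p under 0.05.

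The number of the 8 genes called moved as follows. In WT with NMDA it was 8, with the length correction 4, by the study's rule 3 and 7 to 8 without a library. In shPax6 with NMDA it was 4, with 75th-percentile scaling, quantile normalization and the length correction 8, with the spread alone and by the study's rule 1 and without a library 3 to 6. In JNK3 KO with NMDA it was 2, and 1 without the filter, with quantile normalization, with the spread alone, without the trend and by the study's rule, and 1 to 3 without a library. For shPax6 PBS against WT PBS it was 7, with the spread alone 5 and by the study's rule 2. For JNK3 KO PBS against WT PBS it was 1, and 0 without the filter, with the length correction, with the spread alone, without the trend, with the replicate block and by the study's rule, and 0 to 1 without a library. For the response of WT minus shPax6 it was 4, with TPM 7, by the study's rule 2 and 3 to 5 without a library, and for WT minus JNK3 KO it was 7, with the length correction 4, by the study's rule 3 and 6 to 8 without a library. Over all genes tested the number called moved as well. In WT with NMDA it was 9855, with the length correction 7558. In shPax6 with NMDA it was 4967, with the correction 4757 and with the spread alone 976. For JNK3 KO PBS against WT PBS it was 249, with the correction 100. For WT minus shPax6 it was 8179, with TPM 9287. For WT minus JNK3 KO it was 8472, with the correction 5622. The study's rule is given for the 8 genes only.

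These values changed sign. With the length correction *Cyp51* lay at 0.08 in WT with NMDA, at 0.01 for JNK3 KO PBS against WT PBS, where *Abca1* lay at 0.03, at 0.59 for WT minus shPax6 and at 0.18 for WT minus JNK3 KO. In the same setting WT minus shPax6 was 0.34 for *Idi1*, 0.07 for *Sqle* and 0.6 for *Srebf2* (the last with an adjusted p of 0.0292), and WT minus JNK3 KO was 0.27 for *Srebf2*. With TPM *Fdft1* lay at -0.19 in WT with NMDA and *Hmgcs1* at 0.02 in JNK3 KO with NMDA, where it was 0.01 with 75th-percentile scaling and 0.04 with quantile normalization. With quantile normalization WT minus shPax6 was 0.15 for *Cyp51* and 0.18 for *Idi1*. Without a library, *Hmgcs1* ranged from -0.08 to 0.08 and *Cyp51* from -0.08 to 0.01 in JNK3 KO with NMDA, *Idi1* from -0.05 to 0.01 for JNK3 KO PBS against WT PBS, and for WT minus shPax6 *Cyp51* from -0.39 to 0.07 and *Idi1* from -0.39 to 0.12.

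Libraries with the same replicate number did not deviate together (15 pairs, r from -0.097 to 0.086), and the replicate block changed the number of genes called only for JNK3 KO PBS against WT PBS, to 0. With 2 libraries a group and no counts, differences near the replicate spread cannot be resolved.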
